A study of Mus musculus with 30 samples.

Results

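The genes described here encode the subunits of mitochondrial respiratory complexes II, III, IV and V, and were followed in bulk RNA-seq of mouse diaphragm. They were found by symbol: Sdha to Sdhd for complex II, Cyc1, mt-Cytb and the Uqcr genes for complex III, the Cox4 to Cox8 genes and mt-Co1 to mt-Co3 for complex IV, and the Atp5 genes with mt-Atp6 and mt-Atp8 for complex V, with pseudogenes left out. Of 33076 genes in the count table, 52 were members, 4 of complex II, 10 of III, 20 of IV and 18 of V. The mice carried BACfxAR121, a floxed human transgene with an expanded polyglutamine tract that models spinal and bulbar muscular atrophy (SBMA), and controls were littermates that also carried HSA-Cre. HSA-Cre is Cre under the skeletal actin promoter, so the controls keep the transgene outside skeletal muscle and are called muscle-rescued. One label field spells the transgene of the SBMA mice BACfxR121 while the design text has BACfxAR121, and both were taken as the same allele. All animals were male, 15 in number, and each gave 2 pieces of diaphragm, a perisynaptic one that holds the neuromuscular junctions and an extrasynaptic one taken away from these. At 15 weeks of age there were 4 SBMA and 3 control mice, and at 26 weeks 4 of each, which makes 8 groups and 30 libraries.

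The respiratory chain passes electrons from metabolic fuels to oxygen and stores the released energy as a proton gradient across the inner mitochondrial membrane. Complex II (succinate dehydrogenase) feeds electrons from the citric acid cycle into coenzyme Q, complex III (cytochrome bc1) hands them to cytochrome c, complex IV (cytochrome c oxidase) reduces oxygen, and complex V (ATP synthase) uses the gradient to make ATP. Complex II is encoded wholly in the nucleus, whereas the catalytic cores of III and IV and the proton channel of V include subunits encoded in mitochondrial DNA. The diaphragm contracts throughout life and is rich in mitochondria, and several subunits of complex IV exist as a muscle isoform and a ubiquitous isoform.

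Total counts per library ran from 16280873 to 34694446. Of the 52 members, 48 passed the filter on low counts in each fit. The others were mt-Co2, mt-Co3 and mt-Atp6, with 1, 2 and 3 counts over all 30 libraries, and Cox7b2, with 26. At least 99.5% of the 50-base stretches of those mitochondrial transcripts also occur in nuclear copies. Whether this made their counts so low was not tested, and these counts are not read as expression. Stretches shared with other transcripts make the counts of 3 more members uncertain. They are 27.9% of those of Cox7c (3099 counts in all), 51.1% of those of mt-Co1 and 34.9% of those of Atp5o. Levels are given as CPM, the usual depth-scaled read count of a gene, with TMM factors over all 30 libraries. Fold changes are log2 values ± SE from edgeR's quasi-likelihood test within a region, with Benjamini-Hochberg adjusted p-values over all genes tested, and a gene is called at an adjusted p under 0.05. The labels do not give litters or processing batches, so p-values of the genotype and age tests measure the spread between these animals. Those of the tests between regions, with a term per animal, measure the spread of the regional difference over the animals. The table lists mouse genes, so the human transgene was not measured separately. Shares of all genes called are given for the main edgeR fits only, with all libraries, TMM factors and the low-count filter. Counts under alternatives to these fits are given without such shares.

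Control replicate 2 of the 26-week perisynaptic group stood apart from the other libraries of its group. In it 40 of the 48 tested members were higher than in the rest of the group, by a median of 0.63 on the log2 scale, and the difference was smaller for genes with longer exons, both over members (Spearman's rho -0.58) and over the 246 genes of the members, pathway and marker lists (-0.54). Other libraries of both ages showed such a length relation in one direction or the other. At 26 weeks the rho over members, against the rest of each group, was -0.54 and -0.53 in SBMA perisynaptic replicates 1 and 2. It was 0.46 and 0.49 in replicates 3 and 4, and 0.61 and 0.55 in control perisynaptic replicates 3 and 4. Control extrasynaptic replicates 2, 3 and 4 had -0.53, 0.45 and 0.48. At 15 weeks SBMA perisynaptic replicates 1 to 4 had 0.50, -0.42, -0.41 and 0.45. The remaining libraries of that age lay between -0.33 and 0.24. Over the 48 members the SBMA fold change in extrasynaptic muscle at 26 weeks had a Spearman's rho of -0.061 with exon length (Pearson's r -0.106). This is a description, and the part of the length relation in the results was not tested. Perisynaptic fold changes at 26 weeks are therefore given without control replicate 2 too wherever that ended or made a call, turned the sign or moved the value by over 1.5 times. Library scaling also bears on the size of every fall below. Under TMM the median gene differed by -0.03 between SBMA and control in the 26-week extrasynaptic libraries, and scaled by total counts alone it differed by 0.18. The median member lay 0.31 below the median gene under TMM and 0.32 below it under total counts. In the perisynaptic libraries at 26 weeks those gaps were 0.25 and 0.27. Transcripts of the muscle fibre itself moved with genotype too. The summed level of 14 fibre markers was 127300 to 145500 CPM in extrasynaptic control libraries at 26 weeks and 71350 to 82330 CPM in SBMA libraries, with 10 markers lower (Mb, Acta1, Ckm, Casq1, Ryr1, Tnnt3, Myh1, Myh2, Myh4 and Myh7) and 1 higher (Des). In perisynaptic libraries of that age it was 120800 to 143100 CPM against 63310 to 77630 CPM, with 9 lower (all of these but Ryr1) and 1 higher (Des). None of these markers was at 0 in any group, and their part in the results was not tested. In bulk samples such as these, fewer muscle fibres or mitochondria and less of each RNA per fibre cannot be told apart.

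At 26 weeks most subunit genes of all 4 complexes were lower in SBMA than in control extrasynaptic muscle. Of 48 members tested, 37 fell and 1 rose, where over all genes tested 16.1% fell and 16.1% rose. All 4 genes of complex II fell, 9 of 10 of complex III, 12 of 17 of complex IV and 12 of 17 of complex V. The median log2 fold change was -0.34 for complex II, -0.38 for III, -0.32 for IV and -0.33 for V, beside -0.03 for all genes, so no complex lay far from the others. Without control replicate 2 there were 30 lower and 1 higher, with Uqcr11, Uqcrb, Cox4i1, Cox5b, Cox8b, Atp5h and Atp5k no longer called. With total-count scaling there were 13 lower and 2 higher, and the medians of the 4 complexes were -0.13, -0.17, -0.11 and -0.12. The shares of all genes above are from the main fit and do not apply to these alternatives.

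In perisynaptic muscle of the same age the changes had the same sign for most genes, and fewer passed the test. The 6 of 48 members that fell were Sdhb, Uqcrc1, Cyc1, Uqcrfs1, Cox6a2 and Atp5f1, where 5.97% of all genes fell and 8.04% rose. Both shares are from the main fit and do not apply to the alternatives that follow. Without control replicate 2 there were 6 lower and 1 higher. With a block by run of consecutive animal numbers, 2 animals of each genotype per run, 13 were lower and 1 higher. The medians were -0.22, -0.30, -0.28 and -0.24 for complexes II to V with all libraries and -0.25, -0.15, -0.05 and -0.13 without that replicate. With total-count scaling 1 fell and 1 rose, and the medians of complexes II and V changed sign, to 0.04 and 0.01. By sign, 45 of 48 fold changes were negative in perisynaptic and 44 in extrasynaptic muscle, and 44 were negative in both. Across the 48 genes the fold changes of both regions had a Pearson's r of 0.96 and a Spearman's rho of 0.92, given as a description because the regions come from the same animals. The spread between libraries was wider in the perisynaptic fit, with a biological coefficient of variation of 0.182 against 0.141 in the extrasynaptic fit. In simulated data 9.2% of genes changed by 0.5 on the log2 scale were recovered in the perisynaptic comparison and 30.9% in the extrasynaptic one.

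**Figure D1:**
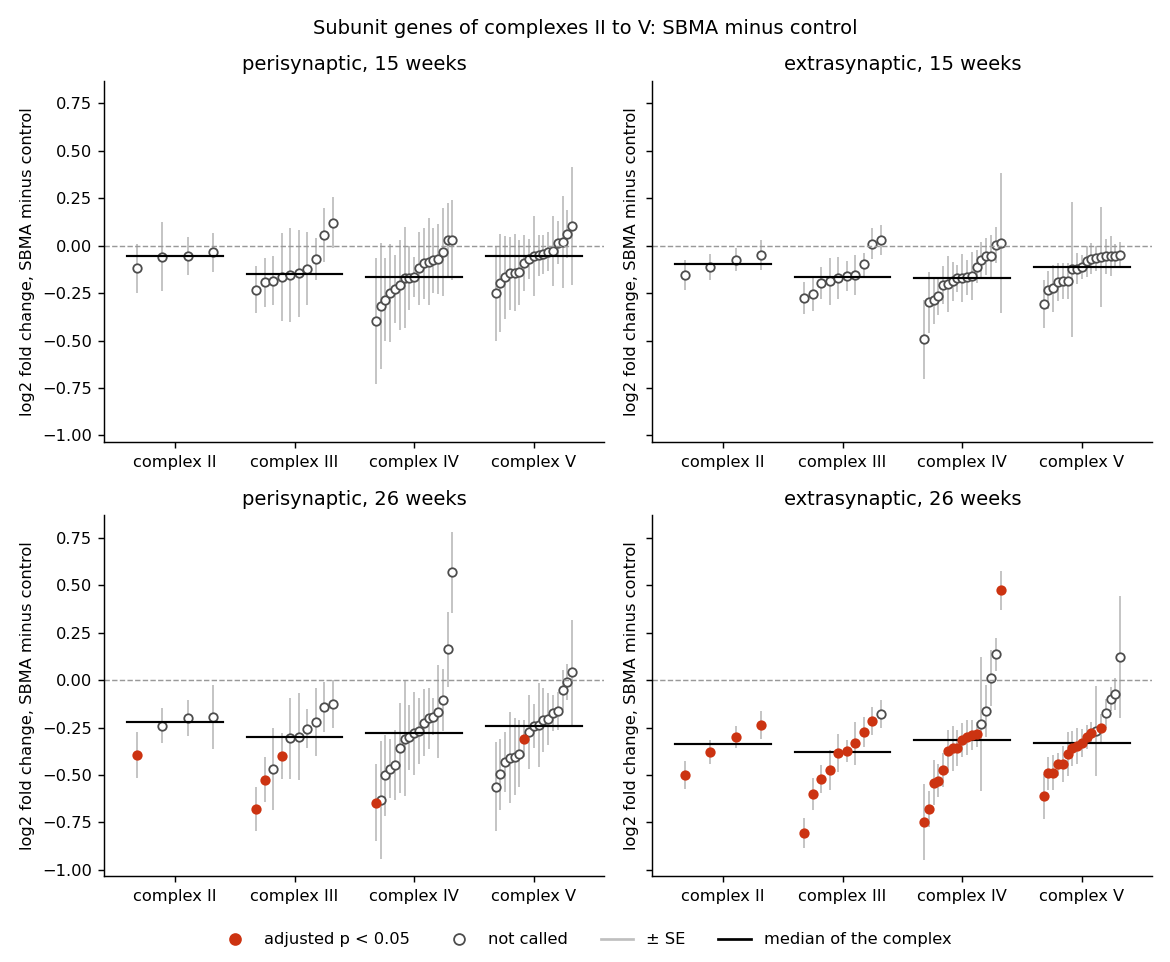
Log2 fold change of SBMA minus control for each tested subunit gene (48 points per panel, with SE bars), grouped by complex on the horizontal axis, in each region and age. Filled points passed an adjusted p of 0.05 (38 in the 26-week extrasynaptic panel, 6 in the 26-week perisynaptic panel, 0 at 15 weeks), and black lines are the medians of the complexes.

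Complex II was lower as a whole in SBMA extrasynaptic muscle at 26 weeks. Sdhb, the iron-sulfur subunit, had 1122, 1158, 1009 and 1035 CPM in the control libraries and 743.4, 810.1, 757.2 and 747.4 CPM in the SBMA libraries. The groups did not overlap, and Sdhb fell by 0.50 ± 0.07 (adjusted p = 0.00013, edgeR). The membrane anchor Sdhc had 562.3, 571.4, 527.4 and 544.6 CPM in controls against 415.7, 455, 423.8 and 400.8 CPM in SBMA, a fall of 0.38 ± 0.06 (adjusted p = 0.000394). The other anchor, Sdhd, had 415.7 to 435 CPM against 338.5 to 355.9 CPM and fell by 0.30 ± 0.06 (adjusted p = 0.00107). Every SBMA library was below every control library for both anchors. Sdha, the flavoprotein that oxidises succinate, had 1592, 1362, 1724 and 1768 CPM in controls and 1320, 1367, 1390 and 1388 CPM in SBMA, so the groups overlapped. It fell by 0.24 ± 0.07 (adjusted p = 0.0214), a call lost when SBMA replicate 1, control replicate 3 or control replicate 4 was left out, with values from -0.31 to -0.19 over the 8 such fits. With total-count scaling Sdhb passed at -0.29 (adjusted p = 0.00948), while Sdha, Sdhc and Sdhd had -0.02, -0.17 and -0.09 and did not.

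In perisynaptic muscle at 26 weeks Sdhb had 1072, 1319, 973.2 and 994.4 CPM in controls and 854.9, 877.4, 810.4 and 748.5 CPM in SBMA. The groups did not overlap and Sdhb fell by 0.40 ± 0.12 (adjusted p = 0.0398). Without control replicate 2 its value was -0.29 (adjusted p = 0.0678), and the call was lost in 6 of 8 fits that left out 1 animal. Sdhc had 528.2 to 566.2 CPM against 430.6 to 479.4 CPM (-0.24 ± 0.09, adjusted p = 0.0964) and Sdhd 386 to 410.6 CPM against 342.3 to 350 CPM (-0.20 ± 0.09, adjusted p = 0.176). Neither anchor passed the test although their groups were separate. Sdha had 1447, 896.7, 1695 and 1631 CPM in controls, where replicate 2 was far below the rest, and 1024, 1103, 1412 and 1375 CPM in SBMA. Its fold change was -0.20 ± 0.17 (adjusted p = 0.478) with all libraries and -0.36 (adjusted p = 0.0441) without that replicate.

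In complex III the largest fall was that of Uqcrc1, a core protein on the matrix side of the complex. It had 1402, 1535, 1272 and 1231 CPM in the 26-week extrasynaptic control libraries and 772.4, 787, 773 and 781 CPM in the SBMA libraries. The SBMA libraries lay within a narrow range well under every control, and Uqcrc1 fell by 0.81 ± 0.08 (adjusted p = 3.56e-06), to 0.572 times the control level. In perisynaptic muscle it had 1266, 1595, 1233 and 1200 CPM in controls and 848.2, 836.1, 791.4 and 806 CPM in SBMA, again without overlap. It fell there by 0.68 ± 0.12 (adjusted p = 0.00109), and by 0.58 without control replicate 2 (adjusted p = 0.000889). Uqcrc1 passed in all 8 fits that left out 1 animal in each region, and with total-count scaling it had -0.60 (adjusted p = 9.17e-05) in extrasynaptic and -0.43 (adjusted p = 0.0212) in perisynaptic muscle.

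Of the electron-carrying subunits of complex III, Cyc1 and Uqcrfs1 fell as well and mt-Cytb did not pass. Cyc1, cytochrome c1, had 806.5, 916.6, 743.5 and 723.9 CPM in extrasynaptic controls and 516.2, 532.5, 534.8 and 520.9 CPM in SBMA at 26 weeks, and fell by 0.60 ± 0.08 (adjusted p = 7.9e-05). Its perisynaptic levels were 751.9, 1003, 726 and 723.1 CPM against 571.8, 578.8, 546.2 and 516.4 CPM, and it fell by 0.52 ± 0.12 (adjusted p = 0.00859), or by 0.40 without control replicate 2 (adjusted p = 0.00884). Neither region had overlapping groups. Uqcrfs1, the Rieske iron-sulfur protein, had 964.9, 1008, 873.2 and 875.3 CPM in extrasynaptic controls and 660.9, 677.3, 638.9 and 614.4 CPM in SBMA, and fell by 0.52 ± 0.07 (adjusted p = 9.55e-05). In perisynaptic muscle it had 820.8 to 1092 CPM against 621.6 to 737.9 CPM and fell by 0.40 ± 0.12 (adjusted p = 0.038), a call lost without control replicate 2 (-0.30, adjusted p = 0.0644). The mitochondrially encoded cytochrome b, mt-Cytb, which binds coenzyme Q, had 25230 to 27050 CPM in extrasynaptic controls and 21920 to 24490 CPM in SBMA. It did not pass the test, at -0.18 ± 0.07 (adjusted p = 0.0758), although the groups did not overlap, and with total-count scaling its value was 0.04. In perisynaptic muscle mt-Cytb had 23360 to 25370 CPM against 19070 to 24310 CPM, with overlap (-0.13 ± 0.13, adjusted p = 0.543).

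The other core protein and the small subunits of complex III all fell in extrasynaptic muscle at 26 weeks. Uqcrc2 fell by 0.37 (adjusted p = 0.000175), Uqcrq by 0.47 (adjusted p = 0.00283), Uqcr10 by 0.39 (adjusted p = 0.0079), Uqcr11 by 0.33 (adjusted p = 0.0357), Uqcrh by 0.27 (adjusted p = 0.0171) and Uqcrb by 0.22 (adjusted p = 0.0377). In perisynaptic muscle their fold changes ran from -0.47 for Uqcrq to -0.14 for Uqcrb, and none passed. Without control replicate 2 Uqcrc2 had -0.33 there and passed (adjusted p = 0.0178), while Uqcrq had -0.16, Uqcr10 -0.017, Uqcrh -0.012, Uqcrb 0.015 and Uqcr11 0.061.

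**Figure D2:**
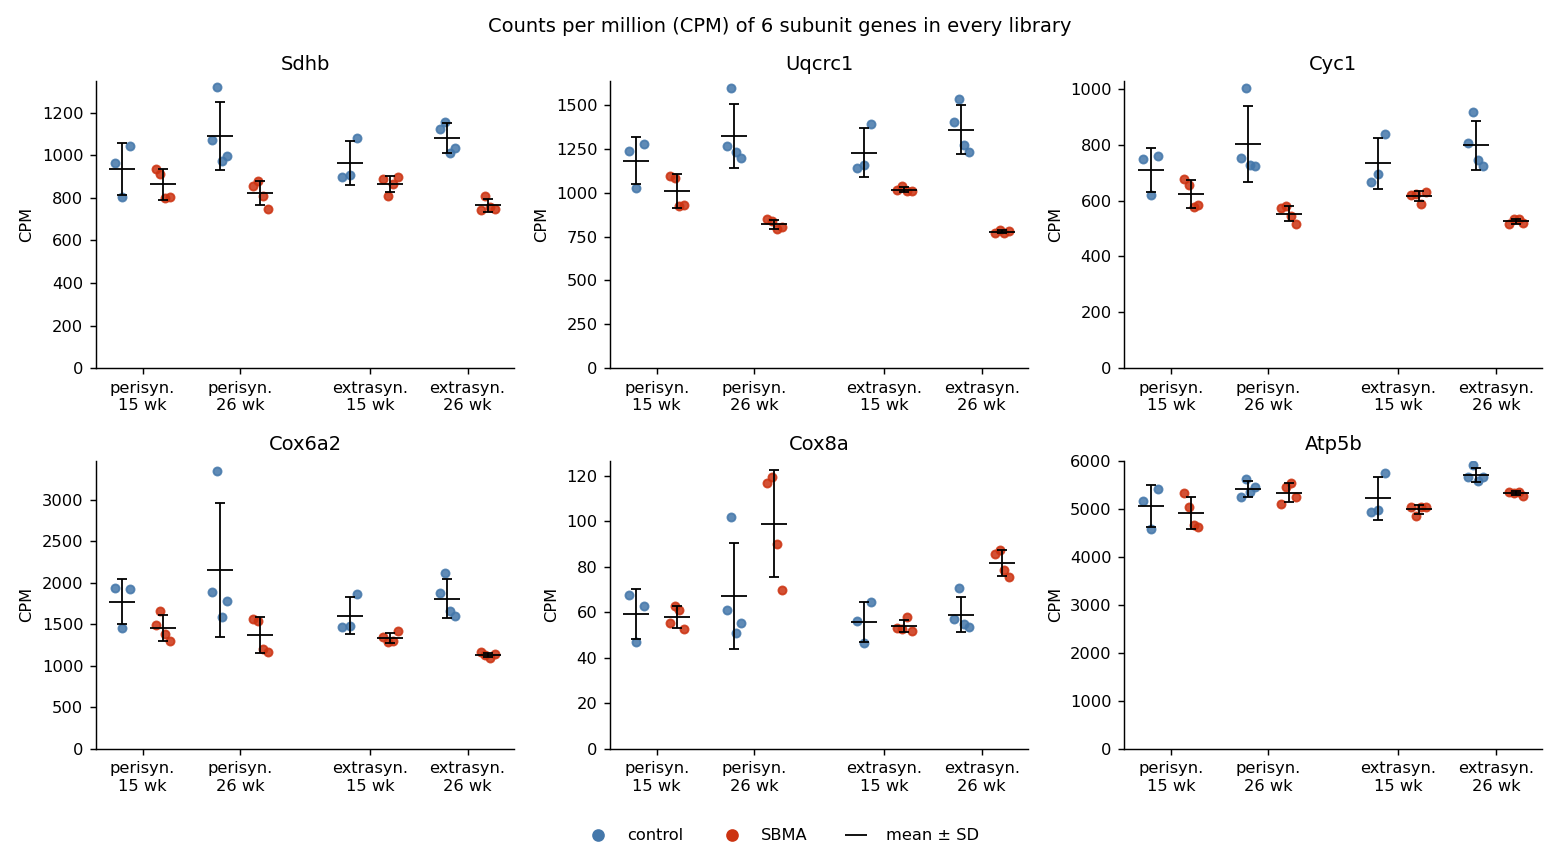
CPM (vertical axis, from 0) of Sdhb, Uqcrc1, Cyc1, Cox6a2, Cox8a and Atp5b in every library, by region and age on the horizontal axis, with the mean ± SD of each group (n = 3 controls at 15 weeks, n = 4 elsewhere). Uqcrc1 and Cyc1 are below every control in SBMA at 26 weeks in both regions, Cox8a is above every control in extrasynaptic SBMA muscle at 26 weeks (75.27 to 87.57 against 53.37 to 70.5 CPM), and Atp5b stays between 4585 and 5935 CPM in all 30 libraries.

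Complex IV held both falling and rising genes. mt-Co1, the mitochondrially encoded catalytic subunit, had 30820, 27770, 32640 and 34840 CPM in 26-week extrasynaptic controls and 21010, 21150, 24030 and 24500 CPM in SBMA, without overlap, and fell by 0.48 ± 0.09 (adjusted p = 0.000996). In perisynaptic muscle its SBMA libraries were split between 17550 and 15440 CPM in replicates 1 and 2 and 25220 and 26370 CPM in replicates 3 and 4, against 22280 to 33080 CPM in controls. The perisynaptic fold change was -0.45 ± 0.18 (adjusted p = 0.122), or -0.55 without control replicate 2 (adjusted p = 0.0436). Cox5a, a nuclear subunit that contacts the core, had 760.6, 853.9, 692.2 and 686.8 CPM in extrasynaptic controls and 509.5, 561.8, 500.8 and 500.3 CPM in SBMA and fell by 0.53 ± 0.09 (adjusted p = 0.00031). In perisynaptic muscle Cox5a had 766.4, 1125, 681 and 707.9 CPM against 625.9, 662.6, 547.9 and 523.1 CPM, without overlap (-0.47 ± 0.16, adjusted p = 0.0601), and -0.27 without control replicate 2. Cox4i1, the ubiquitous form of subunit 4, had 1253, 1451, 1117 and 1128 CPM against 994.9, 1037, 999.1 and 985.1 CPM in extrasynaptic muscle and fell by 0.30 ± 0.09 (adjusted p = 0.0226). That call was lost without control replicate 2 (-0.22, adjusted p = 0.0651), SBMA replicate 1 or SBMA replicate 3. In perisynaptic muscle Cox4i1 had 1130 to 2012 CPM against 965.2 to 1313 CPM, with overlap (-0.27 ± 0.17, adjusted p = 0.335), and -0.035 without that replicate.

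Among the other nuclear subunits of complex IV, Cox5b (-0.36), Cox6c (-0.36), Cox7b (-0.32) and Cox6b1 (-0.29) fell in extrasynaptic muscle at 26 weeks, with adjusted p-values between 0.00995 and 0.0292. Cox7a2l, which helps to join complexes III and IV into supercomplexes, had 59.42 to 67.1 CPM in controls and 47.78 to 56.83 CPM in SBMA and fell by 0.28 ± 0.07 (adjusted p = 0.00402). Its perisynaptic range was 57.87 to 71.7 CPM against 49.83 to 61.8 CPM, with overlap (-0.19 ± 0.10, adjusted p = 0.219). Cox4i2, an isoform known from lung and from the response to low oxygen, had 3.145, 3.079, 1.933 and 1.617 CPM in controls and 1.363, 1.512, 1.499 and 1.383 CPM in SBMA. It fell by 0.75 ± 0.20 (adjusted p = 0.0102) from a level far below that of Cox4i1. Its perisynaptic values were 1.664, 4.587, 1.754 and 1.37 CPM in controls and 1.383, 1.522, 1.38 and 1.639 CPM in SBMA, with overlap (-0.63 ± 0.31, adjusted p = 0.193), and the fold change was -0.099 without control replicate 2. Cox6b2 and Cox7c did not pass (-0.23 and 0.01).

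The isoform pairs of complex IV differed within the same subunit. Cox6a2, the muscle form of subunit 6A, had 1872, 2114, 1662 and 1595 CPM in 26-week extrasynaptic controls and 1160, 1126, 1095 and 1144 CPM in SBMA, and fell by 0.68 ± 0.09 (adjusted p = 8.05e-05). Its ubiquitous counterpart Cox6a1 had 46.94, 70.41, 50.67 and 45.12 CPM against 49.55, 49.47, 44.48 and 46.77 CPM, with overlap (-0.16 ± 0.14, adjusted p = 0.38). Cox7a1, the muscle form of subunit 7A, had 520.1, 588.9, 408 and 416.8 CPM against 319.3, 331.8, 328.8 and 350 CPM and fell by 0.54 ± 0.12 (adjusted p = 0.0028). For Cox7a2, the ubiquitous form, the SBMA libraries reached somewhat higher: 304.5, 330.4, 265.4 and 265.4 CPM in controls and 328.4, 351.3, 288.5 and 313.5 CPM in SBMA. The groups overlapped and the fold change was 0.14 ± 0.09 (adjusted p = 0.247), or 0.35 with total-count scaling, which passed (adjusted p = 0.0119).

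In perisynaptic muscle at 26 weeks the muscle isoforms were highest in control replicate 2. Cox6a2 had 1884, 3355, 1588 and 1782 CPM in controls and 1566, 1539, 1201 and 1160 CPM in SBMA, without overlap, and fell by 0.65 ± 0.20 (adjusted p = 0.0468). Without that replicate it had -0.35 (adjusted p = 0.0984), and the call was lost in 6 of 8 fits that left out 1 animal. Cox7a1 had 522, 904, 405.8 and 441.3 CPM against 434.2, 479.9, 368 and 312.8 CPM, with overlap (-0.50 ± 0.21, adjusted p = 0.136), and -0.18 without that replicate (adjusted p = 0.423). Its ubiquitous partner Cox7a2 had 334.4, 527.8, 279.9 and 287.5 CPM against 459.6, 488.1, 346.6 and 294.2 CPM (0.16 ± 0.20, adjusted p = 0.632), and Cox6a1 had 41.37 to 98.61 CPM against 40.16 to 63.43 CPM (-0.17 ± 0.25, adjusted p = 0.705). Both ubiquitous forms overlapped between genotypes, and without that replicate Cox7a2 had 0.41 (adjusted p = 0.0787) and Cox6a1 had 0.20 (adjusted p = 0.483), the latter with its sign turned.

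Subunit 8 showed the widest split. Cox8b, its muscle form, had 671, 730, 541.1 and 521.3 CPM in extrasynaptic controls and 487.6, 481.5, 452.5 and 477.1 CPM in SBMA at 26 weeks and fell by 0.38 ± 0.12 (adjusted p = 0.0216). That call was lost without control replicate 1, control replicate 2 or SBMA replicate 3. Cox8a, the ubiquitous form, was the 1 member that rose. It had 56.81, 70.5, 55 and 53.37 CPM in controls and 85.67, 87.57, 78.47 and 75.27 CPM in SBMA, all of them above every control, a rise of 0.47 ± 0.10 (adjusted p = 0.00267) that passed in all 8 fits that left out 1 animal. In perisynaptic muscle Cox8a had 60.83, 101.8, 50.66 and 55.41 CPM in controls and 116.7, 119.3, 89.89 and 69.67 CPM in SBMA. The groups overlapped through control replicate 2. Cox8a had 0.57 ± 0.21 (adjusted p = 0.0883), and without that replicate 0.84 (adjusted p = 0.00361). Cox8b there had 671.2, 1265, 549.4 and 576.1 CPM against 695, 705.1, 528.7 and 442.8 CPM, with overlap (-0.36 ± 0.24, adjusted p = 0.347), and -0.0045 without replicate 2 (adjusted p = 0.991).

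A ratio of 2 isoforms within a library does not depend on library scaling. The log2 ratio of Cox6a2 to Cox6a1, in counts per kilobase of exon, was 5.364, 4.954, 5.082 and 5.19 in extrasynaptic controls and 4.595, 4.554, 4.668 and 4.658 in SBMA at 26 weeks, a difference of -0.53. In perisynaptic muscle it was 5.134 to 5.337 against 4.647 to 4.898, a difference of -0.49. The groups were separate in both regions. The log2 ratio of Cox7a1 to Cox7a2 was 1.592, 1.653, 1.44 and 1.471 in extrasynaptic controls and 0.7788, 0.7368, 1.008 and 0.9782 in SBMA, a difference of -0.66. The perisynaptic libraries gave 1.355 to 1.596 against 0.7375 to 0.9078, a difference of -0.63. Here too no SBMA library reached a control. The log2 ratio of Cox8b to Cox8a was 4.344, 4.154, 4.08 and 4.07 in extrasynaptic controls and 3.291, 3.241, 3.31 and 3.446 in SBMA, a difference of -0.84. In perisynaptic muscle it was 4.16 to 4.416 against 3.338 to 3.45, a difference of -0.89. Control replicate 2, which stood apart in levels, lay at 5.134, 1.596 and 4.416 in the perisynaptic ratios of these 3 pairs, on the control side each time. Over the 8 fits that left out 1 animal the extrasynaptic differences ran from -0.59 to -0.46, from -0.71 to -0.62 and from -0.88 to -0.78 for the 3 pairs. At 15 weeks the groups overlapped for the 3 pairs in both regions, with differences of -0.12, -0.12 and -0.23 in perisynaptic and -0.08, -0.16 and -0.23 in extrasynaptic muscle. The ratio of Cox4i2 to Cox4i1, which is not a muscle pair, differed by -0.24 in perisynaptic and -0.41 in extrasynaptic muscle at 26 weeks with overlapping groups. At 15 weeks, unlike the muscle pairs, its groups were separate in both regions, with differences of -0.33 and -0.30, but only narrowly. The lowest control and the highest SBMA library were -7.924 and -7.932 in perisynaptic and -7.955 and -7.967 in extrasynaptic muscle. Cox4i2 had only 1463 counts over all 30 libraries.

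**Figure D3:**
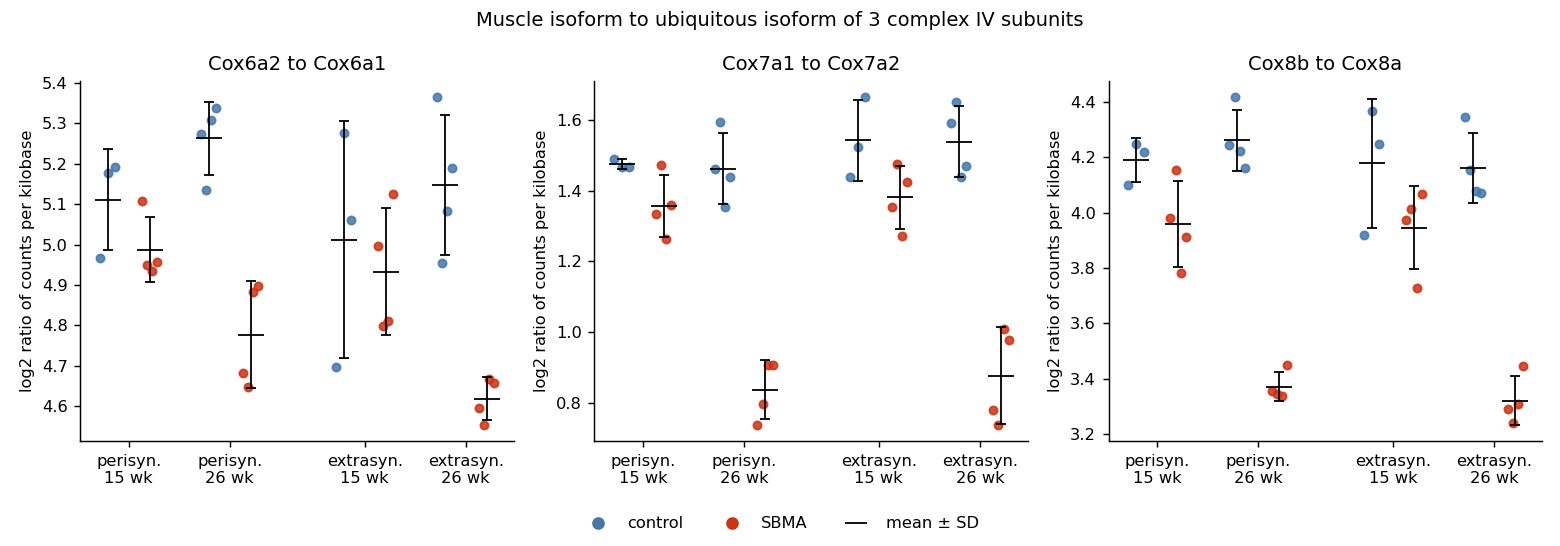
Log2 ratio of the muscle isoform to the ubiquitous isoform of subunits 6A, 7A and 8 of complex IV (vertical axes, counts per kilobase, each panel with its own range) in every library, by region and age, with mean ± SD. At 26 weeks every SBMA library lies below every control library in all 3 panels and both regions, and at 15 weeks the groups overlap.

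The pairs of subunits 7A and 8 also differ in the sequence before their start sites, which is shown because the members of each pair moved apart. In the RefSeq promoter windows (GRCm38.p6, 250 bases before to 50 after the start), Cox7a1 held 7 CG dinucleotides and Cox7a2 held 20, while Cox8b held 2 and Cox8a held 19. The stretches below lie before the start and outside annotated exons and are written 5′ to 3′ on the strand of the gene, with each CG dinucleotide in capitals.
Cox7a1 (chr7:30183921-30184143, plus strand): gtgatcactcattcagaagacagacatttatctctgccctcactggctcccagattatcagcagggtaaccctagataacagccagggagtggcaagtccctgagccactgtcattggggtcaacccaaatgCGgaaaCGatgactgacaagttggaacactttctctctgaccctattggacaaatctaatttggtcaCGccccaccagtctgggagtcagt
Cox7a2 (chr9:79759879-79760103, minus strand): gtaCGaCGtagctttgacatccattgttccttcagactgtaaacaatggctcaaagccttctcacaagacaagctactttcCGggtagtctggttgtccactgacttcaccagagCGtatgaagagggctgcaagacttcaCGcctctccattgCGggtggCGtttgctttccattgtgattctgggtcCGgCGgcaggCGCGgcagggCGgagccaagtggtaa
Cox8b (chr7:140900447-140900696, minus strand): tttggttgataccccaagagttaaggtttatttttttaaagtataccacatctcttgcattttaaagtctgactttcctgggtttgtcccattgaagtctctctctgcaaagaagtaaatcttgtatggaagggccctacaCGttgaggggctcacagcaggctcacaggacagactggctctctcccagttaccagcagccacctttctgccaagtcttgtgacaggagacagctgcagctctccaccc
Cox8a (chr19:7217617-7217866, minus strand): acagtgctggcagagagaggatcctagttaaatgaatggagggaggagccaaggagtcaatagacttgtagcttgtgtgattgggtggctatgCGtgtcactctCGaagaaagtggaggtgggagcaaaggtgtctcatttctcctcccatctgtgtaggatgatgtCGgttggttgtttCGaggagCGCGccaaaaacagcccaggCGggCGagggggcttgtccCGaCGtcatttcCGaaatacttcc
These stretches hold 3, 12, 1 and 11 CG dinucleotides in that order. In these 2 pairs the muscle isoforms, which fell, have few and the ubiquitous isoforms have many. Cox6a2 had no promoter entry, so its pair with Cox6a1 is not shown. Of other members that fell in extrasynaptic muscle at 26 weeks, the windows of Cox5a, Uqcrfs1, Sdhd and Cox5b held 35, 31, 29 and 27. That of Cox7b, which fell too, held 5. The contrast describes these 2 pairs only and says nothing of methylation or of control. A relation of CG count and fall was not tested.

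In complex V 12 of 17 genes fell in extrasynaptic muscle at 26 weeks. Those that did not pass were Atp5b, an abundant subunit, and Atp5g1, Atp5g2, Atp5l and Atp5s, of lower count. The SE was wide for Atp5g2 (0.3195) and Atp5l (0.2385). For Atp5g1 (0.0749) and Atp5s (0.0857) it was like that of Atp5j (0.0755) and Atp5g3 (0.0875), which fell. Atp5a1 and Atp5b, the α and β subunits of the catalytic head, stand in the same number in the enzyme. Atp5a1 had 4304, 4369, 4246 and 4424 CPM in 26-week extrasynaptic controls and 3553, 3675, 3641 and 3416 CPM in SBMA, and fell by 0.28 ± 0.06 (adjusted p = 0.002). Atp5b had 5673, 5935, 5598 and 5679 CPM against 5354, 5344, 5367 and 5287 CPM and did not pass, at -0.10 ± 0.06 (adjusted p = 0.233). In both genes each SBMA library was below each control, by a wider gap for Atp5a1. With total-count scaling Atp5b had 0.11 and Atp5a1 -0.07, neither called, so the sign for Atp5b depended on the scaling. In perisynaptic muscle Atp5a1 had 3590 to 4206 CPM against 3301 to 3737 CPM (-0.16 ± 0.10, adjusted p = 0.312) and Atp5b 5250 to 5622 CPM against 5120 to 5547 CPM (-0.01 ± 0.10, adjusted p = 0.955, and 0.0062 without control replicate 2), both with overlap. The remaining subunits of the head and central stalk, Atp5c1 (γ), Atp5d (δ) and Atp5e (ε), fell in extrasynaptic muscle by 0.30, 0.49 and 0.61 (adjusted p = 0.00204, 0.00116 and 0.00118). Atp5e had 636.9, 731.8, 543.2 and 544.2 CPM in controls and 400.5, 444, 373.7 and 389.9 CPM in SBMA, without overlap. In perisynaptic muscle it had 572.2 to 1262 CPM against 378.3 to 670.1 CPM, with overlap (-0.56 ± 0.23, adjusted p = 0.125), and -0.23 without control replicate 2 (adjusted p = 0.389).

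In the peripheral stalk, Atp5f1 (subunit b) had 616.5, 606.7, 559.2 and 575.9 CPM in extrasynaptic controls and 424.3, 455.4, 433 and 420.9 CPM in SBMA at 26 weeks. It fell by 0.44 ± 0.06 (adjusted p = 5.41e-05). Its levels in perisynaptic muscle were 581.4, 565.1, 548.6 and 549.4 CPM against 464.9, 459.9, 455.8 and 420.2 CPM, and it fell by 0.31 ± 0.10 (adjusted p = 0.045). Its groups were separate in both regions. The perisynaptic call was kept without control replicate 2 (-0.30, adjusted p = 0.0391) but lost in 7 of the 8 fits that left out 1 animal. Atp5o, which joins the stalk to the head, fell by 0.44 (adjusted p = 0.00254) in extrasynaptic muscle, Atp5h (subunit d) by 0.25 (adjusted p = 0.0192) and Atp5j (coupling factor 6) by 0.33 (adjusted p = 0.00374). Part of the Atp5j transcript is shared with Gabpa, with 20.2% of its 50-base stretches found there.

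The c ring of complex V, which turns with the proton flow, is built from an identical protein made by 3 genes, and Atp5g3 supplied nearly all of the transcript here. In 26-week extrasynaptic controls Atp5g3 stood at 659 CPM per kilobase, Atp5g1 at 5.11 and Atp5g2 at 0.452. Atp5g3 had 1497, 1642, 1308 and 1301 CPM in those controls and 976.6, 1062, 985.5 and 1065 CPM in SBMA, without overlap, and fell by 0.49 ± 0.09 (adjusted p = 0.000638). Atp5g1 had 23.98 to 25.78 CPM against 19.98 to 23.43 CPM and did not pass (-0.18 ± 0.07, adjusted p = 0.0842). Atp5g2 had 0.5886 to 0.9055 CPM against 0.6518 to 1.048 CPM, with overlap. In perisynaptic muscle Atp5g3 had 1450, 2064, 1305 and 1312 CPM against 1193, 1246, 1049 and 1025 CPM, without overlap (-0.43 ± 0.16, adjusted p = 0.0803), and -0.26 without control replicate 2. Atp5g1 there had 23.1 to 30.93 CPM against 19.05 to 23.82 CPM (-0.24 ± 0.12, adjusted p = 0.186, and -0.15 without that replicate) and Atp5g2 0.5302 to 1.036 CPM against 0.5901 to 0.8716 CPM, both with overlap. The small membrane subunits Atp5k, Atp5j2 and Atp5mpl fell by 0.39, 0.36 and 0.35 in extrasynaptic muscle, and Atp5l had -0.27 (adjusted p = 0.409) from only 6977 counts over all libraries. Atp5s, which carries an Atp5 symbol but is not a core subunit, had -0.07 (adjusted p = 0.543).

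Of the mitochondrially encoded members, mt-Cytb and mt-Co1 had counts to compare, those of mt-Co1 with the limit that 51.1% of its stretches occur in other transcripts. The log2 ratio of mt-Co1 to mt-Cytb counts was 0.2177, 0.1385, 0.3611 and 0.3651 in 26-week extrasynaptic controls and -0.0611, -0.1135, -0.02729 and 0.0976 in SBMA. Every SBMA library was below every control. In perisynaptic muscle the ratio was -0.06863 to 0.3996 in controls and -0.3188 to 0.1683 in SBMA, with overlap. As a share of all counts, the mitochondrially encoded members made up 5.38% ± 0.10 (SD, n = 4) in 26-week extrasynaptic controls and 4.96% ± 0.24 (SD, n = 4) in SBMA, with overlap. At 15 weeks the order was the other way in extrasynaptic muscle, 4.80% ± 0.51 (SD, n = 3) in controls and 5.42% ± 0.22 (SD, n = 4) in SBMA, with every SBMA library above every control. The share taken by Gm42418, a feature that collects ribosomal RNA, moved with that difference, at 3.364 to 6.203% in those controls and 0.824 to 3.267% in SBMA. Without Gm42418 and ribosomal RNA features the 15-week shares were 5.10% and 5.57% and the groups overlapped.

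The value of each complex in a library was taken as the median over its nuclear-encoded members of the log2 CPM less each gene's mean over 30 libraries. In extrasynaptic muscle at 26 weeks the SBMA libraries were below the control libraries for all 4 complexes. For complex II the means were 0.17 ± 0.03 (SD) in controls and -0.18 ± 0.05 in SBMA, and for complex III they were 0.14 ± 0.20 and -0.26 ± 0.07. For complex IV they were 0.11 ± 0.20 and -0.22 ± 0.06 and for complex V 0.14 ± 0.11 and -0.20 ± 0.04, with n = 4 in each group. In perisynaptic muscle at 26 weeks complex II alone was separate, at 0.11 ± 0.01 (SD) in controls and -0.14 ± 0.02 in SBMA, while complexes III, IV and V overlapped. There control replicate 2 stood at 0.61, 0.83 and 0.55 for III, IV and V. For II it stood at 0.10, just under the 0.11 to 0.12 of the rest of its group. That value is a median over 4 genes, of which Sdha was below and Sdhb above the other controls in this library. The SBMA libraries of that group were divided as well, with replicates 1 and 2 above replicates 3 and 4 for complexes III, IV and V. In both genotypes replicates 1 and 2 and replicates 3 and 4 come from separate runs of consecutive animal numbers in the library names. Within these runs 43 and 45 of the 48 genes were lower in perisynaptic SBMA muscle at 26 weeks (medians -0.32 and -0.22), and 43 and 44 in extrasynaptic muscle (medians -0.42 and -0.28).

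**Figure D4:**
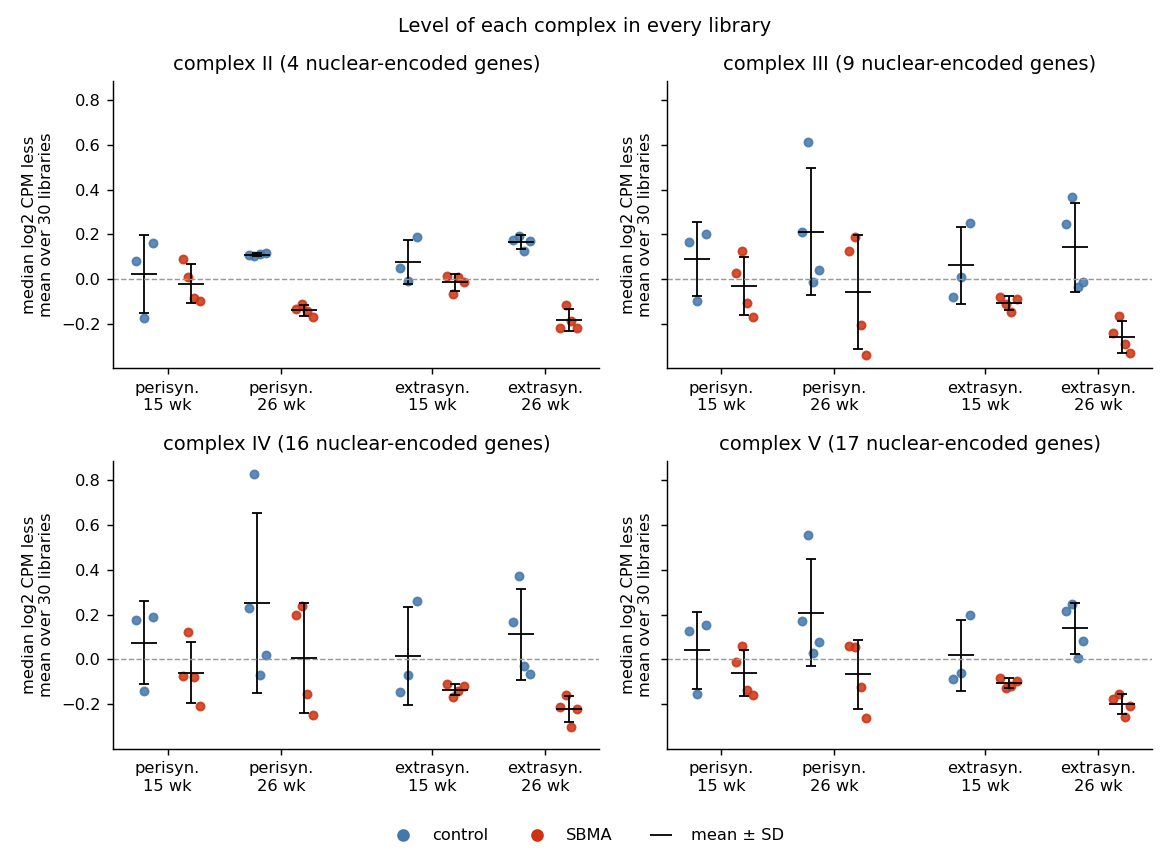
Value of each complex in every library (vertical axis, median log2 CPM of its nuclear-encoded genes less each gene's mean over 30 libraries) by region and age, with mean ± SD of each group. Control and SBMA libraries are separate for all 4 complexes in extrasynaptic muscle at 26 weeks, and in perisynaptic muscle at that age control replicate 2 is far above its group for complexes III to V.

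At 15 weeks no subunit gene passed the test in either region, while 0.21% of all genes did in perisynaptic and 1.22% in extrasynaptic muscle. In perisynaptic muscle 0 members had an unadjusted p under 0.05, DESeq2 called 0, and the median fold change was -0.11 with 40 of 48 negative. In extrasynaptic muscle 9 members had an unadjusted p under 0.05, all lower, DESeq2 called 1, which was Uqcrc1, and the median was -0.16 with 44 of 48 negative. The genotypes were unequal over the runs of animal numbers at this age, with 3 SBMA and 1 control animals in run 1 and 1 and 2 in run 2. Within these runs the extrasynaptic medians were -0.05 and -0.16, with 34 and 45 of 48 members lower. The perisynaptic medians were -0.13 and -0.19, with 42 and 45 lower. Uqcrc1 again had the smallest p in both regions. It had 1139, 1158 and 1391 CPM in the extrasynaptic controls and 1018, 1037, 1009 and 1008 CPM in SBMA, with no overlap (-0.28 ± 0.08, adjusted p = 0.137). In perisynaptic muscle it had 1240, 1028 and 1279 CPM against 1098, 1086, 927 and 928.3 CPM, with overlap (-0.23 ± 0.12, adjusted p = 0.764). Cyc1 had -0.25 ± 0.09 (adjusted p = 0.199) in extrasynaptic and -0.19 ± 0.13 (adjusted p = 0.867) in perisynaptic muscle, and Atp5e had -0.31 ± 0.13 (adjusted p = 0.278) and -0.25 ± 0.25 (adjusted p = 0.953). In complex II Sdha had 1388 to 1578 CPM in perisynaptic controls and 1341 to 1558 CPM in SBMA, and 1506 to 1597 CPM against 1462 to 1502 CPM in extrasynaptic muscle. Sdhb had 803 to 1041 CPM against 797.2 to 936.9 CPM and 898.3 to 1081 CPM against 809.9 to 899.7 CPM. Of these only extrasynaptic Sdha had separate groups, with a fold change of -0.05. Sdhc had 439.6 to 554.2 CPM against 460.4 to 521 CPM in perisynaptic and 486.5 to 556.7 CPM against 446.6 to 488 CPM in extrasynaptic muscle, and Sdhd 338.3 to 428.2 CPM against 360.2 to 418.4 CPM and 376.5 to 441.7 CPM against 385.1 to 401.2 CPM. Both anchors overlapped between genotypes. In complex III the extrasynaptic groups were separate for Cyc1 (666.4 to 838.3 CPM against 588.8 to 630.6 CPM) and Uqcrfs1 (786.1 to 953.1 CPM against 735.5 to 784.7 CPM, -0.16). The perisynaptic groups overlapped for both, at 619.7 to 760.6 CPM against 575.9 to 675.9 CPM and 723.9 to 910.8 CPM against 662.7 to 795.2 CPM. mt-Cytb overlapped in both regions, at 18130 to 24750 CPM against 22420 to 27430 CPM and 21860 to 26420 CPM against 23200 to 25520 CPM.

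In complex IV at 15 weeks the muscle isoform Cox6a2 had 1461 to 1936 CPM against 1300 to 1663 CPM in perisynaptic and 1469 to 1863 CPM against 1280 to 1424 CPM in extrasynaptic muscle, where the groups were separate (-0.27, adjusted p = 0.234). Cox7a1 had 418.9 to 503.8 CPM against 396.5 to 533.9 CPM and 380.3 to 544.7 CPM against 379.8 to 422.2 CPM, and Cox8b 516.4 to 680.9 CPM against 461.7 to 650.2 CPM and 493.6 to 711.7 CPM against 445.1 to 505.1 CPM. These muscle forms overlapped in both regions, and so did the ubiquitous forms. Cox6a1 had 41.69 to 63.93 CPM against 43.21 to 55.56 CPM and 39.37 to 58.42 CPM against 42.09 to 47.71 CPM, Cox7a2 267.1 to 321.4 CPM against 272.3 to 339.1 CPM and 247.7 to 303.1 CPM against 259.6 to 287 CPM, and Cox8a 46.71 to 67.71 CPM against 52.71 to 62.75 CPM and 46.51 to 64.4 CPM against 51.75 to 57.7 CPM. The rise of Cox8a was thus not seen at this age, when its fold changes were -0.03 and -0.05. Cox4i1 had 938 to 1208 CPM against 895.5 to 1131 CPM and 1027 to 1333 CPM against 938.9 to 1008 CPM, Cox4i2 2.097 to 2.547 CPM against 1.374 to 2.134 CPM and 2.281 to 2.731 CPM against 1.64 to 1.922 CPM, and Cox7a2l 57.23 to 66.04 CPM against 50.99 to 57.25 CPM and 59.94 to 65.18 CPM against 52.51 to 56.66 CPM. These had separate groups in extrasynaptic muscle alone, without passing the test. Cox5a (583.2 to 774.2 CPM against 561.3 to 697.8 CPM, and 622.9 to 790.3 CPM against 585.8 to 624.6 CPM) and mt-Co1 (23560 to 31490 CPM against 26210 to 32990 CPM, and 26230 to 31910 CPM against 27580 to 29190 CPM) overlapped in both regions.

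In complex V at 15 weeks Atp5a1 had 3452 to 4153 CPM against 3523 to 4078 CPM in perisynaptic and 3850 to 4303 CPM against 3800 to 3986 CPM in extrasynaptic muscle, and Atp5b 4585 to 5432 CPM against 4635 to 5341 CPM and 4951 to 5750 CPM against 4858 to 5052 CPM. The head subunits overlapped throughout. Atp5g3 had 1047 to 1456 CPM against 1040 to 1350 CPM and 1177 to 1483 CPM against 1125 to 1144 CPM, Atp5f1 468.9 to 582 CPM against 456.5 to 544.6 CPM and 521.7 to 584.3 CPM against 490 to 514 CPM, and Atp5o 248.6 to 315.2 CPM against 240.1 to 290.9 CPM and 259.2 to 325.4 CPM against 231 to 254.1 CPM. For these the extrasynaptic groups were separate and the perisynaptic groups overlapped, with extrasynaptic fold changes of -0.18, -0.11 and -0.23. Atp5e (540.3 to 715.9 CPM against 481.2 to 601.8 CPM, and 488.9 to 719.3 CPM against 440.6 to 500.6 CPM), Atp5g1 (20.31 to 23.42 CPM against 19.97 to 25.86 CPM, and 21.88 to 26.9 CPM against 22.76 to 24.6 CPM) and Atp5g2 (0.466 to 0.8628 CPM against 0.5335 to 0.9161 CPM, and 0.525 to 0.8796 CPM against 0.3075 to 1.127 CPM) overlapped in both regions. With total-count scaling the extrasynaptic median over members at 15 weeks was 0.04, so its sign depended on the scaling. The fibre markers were lower at this age too, at 137600 to 153400 CPM in extrasynaptic controls and 92870 to 106700 CPM in SBMA, and 135600 to 142500 CPM against 94110 to 107700 CPM in perisynaptic muscle.

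Every SBMA library was below every control library for 0 members in perisynaptic and 13 in extrasynaptic muscle at 15 weeks, where 5.26% and 7.69% of all genes were so placed. At 26 weeks the numbers were 11 and 37 of 48, where 8.63% and 14.6% of all genes were.

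Between 15 and 26 weeks members passed the test only in SBMA extrasynaptic muscle, at a share near that of all genes. The ages come from separate runs of consecutive animal numbers, so age and run cannot be told apart. In control animals no subunit gene passed between 15 and 26 weeks in either region, and 0% of all genes did in perisynaptic and 0% in extrasynaptic muscle. No member had an unadjusted p under 0.05 there and DESeq2 called 0. The control medians were 0.19 in perisynaptic and 0.11 in extrasynaptic muscle, with 45 of 48 fold changes positive in each. In SBMA extrasynaptic muscle 3 members fell from 15 to 26 weeks, namely Uqcrc1 (-0.39, adjusted p = 0.00502), mt-Co1 (-0.34, adjusted p = 0.0233) and Atp5f1 (-0.22, adjusted p = 0.0237), and Cox8a rose (0.60, adjusted p = 0.00158). Over all genes 5.62% fell and 6.52% rose. With total-count scaling 2 members fell and 2 rose. Uqcrc1 and Cox8a passed in all 8 fits that left out 1 animal, and mt-Co1 and Atp5f1 were each lost in 5 of them. In SBMA perisynaptic muscle 0 members passed, where 3.95% of all genes did. There 2 members were lower and 1 higher at an unadjusted p under 0.05, and DESeq2 called 1, higher. That gene was Cox8a, at 52.71 to 62.75 CPM at 15 weeks and 69.67 to 119.3 CPM at 26 weeks.

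Whether the SBMA difference itself changed with age was tested as an interaction. In extrasynaptic muscle it passed for 1 member, Uqcrc1, at -0.53 (adjusted p = 0.029), where 1.73% of all genes passed. The control libraries of Uqcrc1 rose from a mean of 1229 to 1360 CPM between the ages while the SBMA libraries went from 1018 to 778.3 CPM. This call was lost in 9 of the 15 fits that left out 1 animal, with values from -0.63 to -0.47. It was also lost with total-count scaling (-0.52, adjusted p = 0.0655) and with the replicate number as a block (-0.54, adjusted p = 0.143). At an unadjusted p under 0.05 the interaction was negative for 17 members and positive for 1, and DESeq2 called 6 negative and 1 positive. In perisynaptic muscle 0 members passed, where 0.375% of all genes did, 1 was negative at an unadjusted p under 0.05, and DESeq2 called 0.

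No subunit gene passed the test between the perisynaptic and the extrasynaptic piece of the same animals in any group, while some alternatives called members at 26 weeks. The comparison, with the animal as a block, called 0 of 48 members in control and SBMA muscle at 15 weeks, where 1.16% and 0.948% of all genes were called, and 0 at 26 weeks, where 1.18% and 2.07% were. At 15 weeks 0 members had an unadjusted p under 0.05 in either genotype and DESeq2 called 0. At 26 weeks 5 members were higher and 4 lower in perisynaptic control muscle at an unadjusted p under 0.05 with 0 called by DESeq2, and in SBMA 18 were higher with 1 called. The median difference of perisynaptic minus extrasynaptic was 0.16 in SBMA at 26 weeks, with 38 of 48 positive, and 0.09 in controls. For complexes II, III, IV and V the SBMA medians were 0.05, 0.15, 0.22 and 0.14. When SBMA replicate 4 was left out 7 members were called higher, and with no filter on low counts 11 were called higher in SBMA and 1 in controls. The share of all genes called under these alternatives is not given here. The test of whether the regional difference depended on genotype called 0 members at 15 weeks, where 0% of all genes were called, and 0 at 26 weeks, where 0.0124% were. No member reached an unadjusted p under 0.05 in it at either age and DESeq2 called 0. A difference of the SBMA effect between regions was therefore not detectable. At 26 weeks the fall was larger in extrasynaptic muscle for 41 of 48 genes, and the median member differed by 0.07 between regions. These are descriptions, because members shift together within a library.

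Compared per kilobase of merged exon, levels of the members spanned a wide range. In 26-week extrasynaptic controls mt-Cytb stood highest, at 22770 ± 765 CPM per kilobase (SD, n = 4), beside mt-Co1 at 20400 ± 1936, and their ranges over libraries met (22050 to 23650 against 17970 to 22550). The most abundant nuclear-encoded members were Cox6a2, at 2663 ± 344, and Cox8b, at 1711 ± 281, followed by Atp5a1 at 1383 ± 24.8 and Atp5b at 1350 ± 34.7, which overlapped. Complex II genes lay between 170 (Sdhc) and 483 (Sdhb), and Uqcrc1, Uqcrc2 and Cyc1 between 329 and 370. The ubiquitous isoforms Cox8a (95.2) and Cox6a1 (75.9) were far below their muscle counterparts, while Cox7a2 (309) was closer to Cox7a1 (904).

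Other genes of oxidative metabolism were counted from lists, to be read against the 16.1% of all genes that fell and the 16.1% that rose in extrasynaptic muscle and the 5.97% and 8.04% in perisynaptic muscle at 26 weeks. Those shares are from the main fits and do not apply to the counts under other settings. In extrasynaptic muscle at 26 weeks 36 of 41 tested complex I subunit genes fell and 0 rose, with a median of -0.42 in log2 fold change. Of 17 genes of electron carriers and coenzyme Q synthesis 13 fell and 1 rose (median -0.41), and of 17 genes of the citric acid cycle 11 fell and 1 rose (median -0.30). Assembly factors of complexes II to V moved less as a list, with 11 of 32 lower and 2 higher and a median of -0.15. Among regulators of mitochondrial biogenesis 3 of 15 fell and 2 rose (median -0.05), and of the genes for mitochondrial DNA upkeep and expression 4 of 14 fell and 0 rose (median -0.16). In perisynaptic muscle the lower calls were 6 of 41, 6 of 17, 3 of 17, 4 of 32, 3 of 15 and 0 of 14 in the same order, with 1 assembly factor higher. Of the 14 genes of mitochondrial DNA upkeep 1 was lower there at an unadjusted p under 0.05. Scaling by total counts moved the small falls of some lists to the other side: the extrasynaptic medians became 0.06 for assembly factors, 0.17 for regulators and 0.05 for mitochondrial DNA upkeep, with 8, 6 and 1 genes higher and 2, 2 and 0 lower. Complex I (15 lower, 1 higher), the electron carriers (5 lower, 1 higher) and the citric acid cycle (4 lower, 3 higher) kept negative medians of -0.20, -0.20 and -0.09. In perisynaptic muscle that scaling left 0, 1, 1, 0, 1 and 0 lower calls for complex I, carriers, citric acid cycle, assembly factors, regulators and mitochondrial DNA upkeep. It left 0, 1, 2, 5, 2 and 0 higher. Without control replicate 2 the lower calls there, in the same order, were 5, 8, 7, 8, 5 and 1, with 0, 1, 0, 2, 0 and 0 higher. The perisynaptic median of complex I was -0.345 with all libraries and -0.153 without that replicate.

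Coq8a, which supports coenzyme Q synthesis, fell further than any of the tested subunit genes, from a mean of 2140 to 917.5 CPM in extrasynaptic muscle (-1.22 ± 0.07, adjusted p = 2.16e-08) and from 2118 to 927.5 CPM in perisynaptic muscle (-1.18 ± 0.09, adjusted p = 1.17e-06). The assembly factors with the smallest p, Cox11 and Cox19, both take part in copper delivery to complex IV and went in opposite directions. Cox11 fell by 0.59 ± 0.07 (adjusted p = 2.62e-05) and Cox19 rose by 0.53 ± 0.07 (adjusted p = 3.41e-05) in extrasynaptic muscle, and in perisynaptic muscle they had -0.52 (adjusted p = 0.0107) and 0.52 (adjusted p = 0.00498). The citric acid cycle enzymes Idh3b and Idh2 fell by 0.57 and 0.82 (adjusted p = 8.84e-06 and 2.59e-05) in extrasynaptic muscle and by 0.46 and 0.68 (adjusted p = 0.00293 and 0.00106) in perisynaptic muscle. In complex I, Ndufa5 and Ndufa9 fell by 0.82 and 0.46 (adjusted p = 1.49e-05 and 2.46e-05) in extrasynaptic muscle, and Ndufab1 and Ndufs7 by 0.47 and 0.70 (adjusted p = 0.00677 and 0.0161) in perisynaptic muscle. Of the regulators, Ppargc1b, a coactivator of mitochondrial genes, fell by 0.78 (adjusted p = 0.00904) in extrasynaptic and by 1.08 (adjusted p = 0.000676) in perisynaptic muscle, and Perm1 fell by 0.55 (adjusted p = 0.00218) in extrasynaptic muscle. Coq5 (-0.47, adjusted p = 2.14e-05), Polg (-0.26, adjusted p = 0.00418) and Tefm (-0.30, adjusted p = 0.00683) fell in extrasynaptic muscle, and Pdss1 (-0.68, adjusted p = 0.012) and Nrf1 (-0.29, adjusted p = 0.0323) in perisynaptic muscle, where Polg and Tefm had -0.20 and -0.14 without passing. With total-count scaling the calls of Polg and Tefm in extrasynaptic muscle and those of Cox11, Idh3b, Ndufab1, Ndufs7, Pdss1 and Nrf1 in perisynaptic muscle were lost. Ndufs7 had -0.44 (adjusted p = 0.0154) in perisynaptic muscle without control replicate 2.

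Markers of other cell types were followed beside these results. In extrasynaptic muscle at 26 weeks the summed macrophage markers were 203.2 to 252.6 CPM in controls and 137.3 to 159.6 CPM in SBMA, with 6 of 8 lower (C1qa, C1qb, C1qc, Csf1r, Cd163 and Mrc1). Endothelial markers were 430.4 to 679.1 CPM against 400.1 to 451.6 CPM with 3 of 7 lower (Tie1, Cdh5 and Egfl7), fibroadipogenic progenitor markers 1496 to 2132 CPM against 1268 to 1819 CPM with 3 of 7 lower (Dcn, Dpt and Pi16), and mesothelial markers 299.8 to 339.9 CPM against 101.2 to 283 CPM with 4 of 6 lower (Upk3b, Msln, Krt19 and Wt1). No adipocyte, Schwann cell or red blood cell marker passed. With total-count scaling 3 macrophage markers were lower and 0 of the endothelial, progenitor and mesothelial markers, and without control replicate 2 there were 1 endothelial and 2 mesothelial markers lower. In perisynaptic muscle 1 macrophage marker (Csf1r) and 1 endothelial marker (Tie1) were lower, 0 of each with total-count scaling, and 3 and 0 without control replicate 2. None of these markers was at 0 in every library of a 26-week group except Ucp1 in perisynaptic controls, and their part in the results was not tested.

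Promoter windows of the members were searched for motifs of factors known to act on respiratory genes. Of the 52 members 36 had a RefSeq entry (GRCm38.p6), 2 of them under another symbol, with a GC content of 43.3 to 77% (median 56.3%). The NRF1 motif GCGCATGCG was present on either strand in 6 of 36 (16.7%) and in 1.95% of the 27025 genes with an entry. The ETS motif CCGGAAG, bound by GABPA among others, was present in 12 of 36 (33.3%) and in 9.93% of genes, and the ERR motif TCAAGGTCA in 2 of 36 (5.56%) and in 0.466% of genes. The MEF2 motif CTAAAAATA was in 0 of 36 and in 0.588% of genes, and the E-box CANNTG in 26 of 36 (72.2%) and in 75% of genes. No motif here contains another, and a match is a description of the letters only. Examples before the start and outside exons, with the match in capitals on the strand of the gene, are an ETS match in Uqcr11, Uqcrh and Atp5e, an NRF1 match in Cox6a1 and Atp5l and an ERR match in Atp5g3.
Uqcr11 (chr10:80406856-80406912, minus strand): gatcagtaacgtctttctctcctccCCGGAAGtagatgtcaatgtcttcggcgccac
Uqcrh (chr4:116075072-116075105, minus strand): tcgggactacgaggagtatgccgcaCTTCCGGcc
Atp5e (chr2:174464172-174464228, minus strand): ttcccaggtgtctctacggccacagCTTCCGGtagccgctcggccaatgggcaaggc
Cox6a1 (chr5:115349086-115349129, minus strand): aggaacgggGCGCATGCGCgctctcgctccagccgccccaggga
Atp5l (chr9:44920950-44920992, minus strand): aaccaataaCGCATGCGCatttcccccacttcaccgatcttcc
Atp5g3 (chr2:73911345-73911403, minus strand): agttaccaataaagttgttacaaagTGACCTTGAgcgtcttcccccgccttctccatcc
Of these 6 genes Uqcr11, Uqcrh, Atp5e and Atp5g3 fell in extrasynaptic SBMA muscle at 26 weeks, where 37 of all 48 tested members fell. Cox6a1 and Atp5l had -0.16 and -0.27 without passing, and a relation of motif and fall was not tested. In Cox6a1 the capitals run over overlapping matches on both strands.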

How the data were processed

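Male mouse diaphragm was dissected into perisynaptic and extrasynaptic pieces, and purified RNA, treated on the column against DNA, went into a strand-marking kit with capture of mRNA, per the labels' protocols. The authors deposited whole-number read counts per gene, made with featureCounts on mm10, per the submitters' processing notes. Which aligner was used, which annotation release, and whether counting used strand was not stated there. The table held 33076 genes, of which 33064 matched the reference annotation, and the unmatched 12 held 0.00171% of the counts. Genes were tested with edgeR 4.0.16 (quasi-likelihood test, TMM factors, at least 10 counts in enough libraries and 15 in all) in R 4.3.3, with Benjamini-Hochberg adjustment over all genes tested and a threshold of 0.05. Each region was fitted over its 15 libraries with a mean per group, and the regions were compared over 30 libraries with a term per animal, which is the pairing by animal that the library names give. Deviations of both pieces of an animal were correlated above 0.1 in 14 of 15 animals (mean 0.336). Standard errors were taken from the fold change and its F statistic. CPM values use TMM factors over all 30 libraries and a prior count of 2 on the log scale, so a ratio of CPM differs slightly from a fitted fold change. Alternatives were RLE and total-count scaling, no filter, DESeq2 1.42.0, blocks by replicate number and by run of animal numbers, only the compared groups, and leaving out each animal. Libraries held 16280873 to 34694446 counts (median 25411012), and no 2 libraries were identical. The pipeline was tested on simulated data with 200 changed genes.

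Members were chosen by symbol, and the members and lists were chosen with earlier results of these data known. The rule names fixed subunits of each complex, the 2 members of each complex with the smallest p in each genotype comparison, and the 2 genes of each pathway list with the smallest p at 26 weeks. Of 55 annotated members 52 were in the table, and the others were not analysed here. Promoter sequences and genome positions come from RefSeq tables on GRCm38.p6. The check of the targeted gene is not reported here.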

Additional observations from a re-analysis of the deposited data

Results flagged for a closer look

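In 216 sets of 4 libraries, taken over the described genes and isoform ratios in each group, 11 (5.09%) held a library whose gap to the nearest other was above Dixon's critical value of 0.829 times the range, and chance gives about 1 in 20. Of these, 6 came from control replicate 2 of the 26-week perisynaptic group, which was above its group for Uqcrc1 (1595 CPM, others 1200 to 1266), Cyc1 (1003 CPM, others 723.1 to 751.9), Cox6a2 (3355 CPM, others 1588 to 1884), Cox8b (1265 CPM, others 549.4 to 671.2), Cox6a1 (98.61 CPM, others 41.37 to 50.29) and Cox4i2 (4.587 CPM, others 1.37 to 1.754). The others were single libraries of SBMA groups. Cox5a was 561.8 CPM in extrasynaptic replicate 2 at 26 weeks (others 500.3 to 509.5), Atp5b was 4858 CPM in extrasynaptic replicate 2 at 15 weeks (others 5046 to 5052), and Atp5g1 was 24.6 CPM in extrasynaptic replicate 4 at 15 weeks (others 22.76 to 23.07). The log2 ratio of Cox6a2 to Cox6a1 was 5.107 in perisynaptic replicate 1 at 15 weeks (others 4.935 to 4.957), and that of Cox8b to Cox8a was 3.45 in perisynaptic replicate 4 at 26 weeks (others 3.338 to 3.356).

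The difference between SBMA and control changed with age for Uqcrc1 in extrasynaptic muscle, by -0.5309 on the log2 scale (edgeR interaction test, adjusted p = 0.029), with SBMA 0.28 below control at 15 weeks and 0.81 below at 26 weeks. That call was lost with total-count scaling (adjusted p = 0.0655), with the replicate number as a block (adjusted p = 0.143) and in 9 of the 15 fits that left out 1 animal. The ages also lie in separate runs of animal numbers.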

How the results depend on the processing

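None of the 49 calls of subunit genes over all comparisons changed sign under an alternative run for it. Of 242 calls of pathway and marker genes, those of Etfa and Ndufv1 in extrasynaptic muscle at 26 weeks turned from -0.21 and -0.19 to 0.0015 and 0.0185 with total-count scaling. The 37 lower and 1 higher calls of extrasynaptic muscle at 26 weeks became 15 calls with total-count scaling, where the medians of complexes II to V were -0.1266, -0.1682, -0.1081 and -0.1222, and 31 to 37 calls over the fits that left out 1 animal. The 6 perisynaptic calls at 26 weeks became 2 with total-count scaling, 3 with no filter, 2 with only the compared groups, 14 with a block by run of animal numbers, and 2 to 7 without 1 animal. The perisynaptic median of complex II was 0.0359 and that of complex V 0.0149 with total-count scaling, and over the fits without 1 animal complex II ran from -0.2546 to -0.2167. At 15 weeks the extrasynaptic medians of complexes II, III and V were 0.0993, 0.0309 and 0.0818 with total-count scaling, and DESeq2 called 1 gene. From 15 to 26 weeks, SBMA perisynaptic muscle had 1 call with RLE factors, total-count scaling, no filter and DESeq2 alike and 0 to 1 without 1 animal, and extrasynaptic muscle 7 with DESeq2 and 2 to 4 without 1 animal. The extrasynaptic genotype by age interaction had 0 calls with total-count scaling, 7 with DESeq2 and 0 to 4 without 1 animal. Between regions at 26 weeks, no filter gave 1 call in controls and 11 in SBMA, DESeq2 gave 1 in SBMA, and leaving out 1 animal 0 to 7. The share of all genes called under each alternative is not given here, and the cause of these changes was not tested.

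Same replicate numbers in both genotypes were correlated above 0.1 in 0 of 3 pairs at 15 weeks and 3 of 4 at 26 weeks in each region. Not every pair was above it, so the numbers were not taken to pair the samples. At 26 weeks they follow the runs of animal numbers in both genotypes. With the replicate block the extrasynaptic calls at 26 weeks were 36, the perisynaptic 7 and the interaction 0. Without the animal as a block the regional calls stayed at 0. Depth limits Atp5g2, Cox6b2 and Cox4i2, and the counts of mt-Co2, mt-Co3 and mt-Atp6 were too few to use.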
